A study of Mus musculus with 48 samples.

Results

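Serpinb8, Lrp1, Scaf1 and Rps23rg1 are 4 of the 16269 genes for which ribosome-protected fragments (RPFs) were counted in mouse liver. They were chosen by their translation efficiency (TE), the level of RPFs relative to the level of cytoplasmic RNA, which was lower at day 4 in livers with active MYC than in wild-type livers. They are not the whole of the genes with that pattern. Every value that compares MYC livers with wild-type livers at day 4 is therefore a description here, and the differences at day 10 are tested.

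The series covers 24 mice aged 2 to 4 months on a mixed C57BL/6 background, with 3 mice for each of 4 genotypes at each of 2 days. Their labels give the sex as male, whereas the paper describes both sexes outside a few named experiments. The genotypes were wild type (WT), Ctnnb1ex3/+ (B), which carries a deletable exon of β-catenin, R26-LSL-MYC (M), which carries a MYC transgene behind a stop cassette, and Ctnnb1ex3/+; R26-LSL-MYC (BM). Every mouse, WT included, received AAV8.TBG.Cre, a virus that expresses Cre from the hepatocyte promoter TBG, and livers were taken 4 or 10 days later. The dose is given as 2e+11 genome copies, in 1 label per mouse and in another per ml, so the amount per mouse is not certain. Each sample is an individual mouse, and its RPF and cytoplasmic RNA libraries came from the same liver lysate. Other liver cells kept their alleles but were in the lysate, so fewer cells of a type and less RNA per cell cannot be told apart.

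RPF libraries held 9742197 to 14380713 counts in coding sequences and RNA libraries held 3254141 to 6540116, with the RNA of BM mice at day 10 among the lowest at 3254141 to 4060257. Glul, the glutamine synthetase that marks β-catenin activity, had more RPFs in every B and BM mouse than in any WT or M mouse, and Myc had more RPFs in every M and BM mouse than in any WT or B mouse. Myc RNA did not separate mice with the MYC allele from the others, at 26.7 to 29.0 CPM (counts scaled to library size) in WT, 27.5 to 48.5 in B, 29.0 to 34.8 in M and 19.6 to 29.7 in BM at day 4, and at 22.2 to 43.4 in WT, 28.3 to 46.1 in B, 20.7 to 26.5 in M and 20.8 to 52.1 in BM at day 10. Hepatocyte markers summed to 78825 to 90663 RNA CPM in WT at day 4 and to 30151 to 37899 in BM at day 4. Most of each sum was the albumin gene Alb, at 61885 to 72090 CPM in WT and 21590 to 27477 in BM. The summed RNA of the markers of other cell types was also lower in BM than in WT at day 4, with medians of 141 against 299 CPM for Kupffer cells, 304 against 479 for endothelial cells and 261 against 459 for stellate cells. Mouse 2 of M at day 4 had the highest summed Kupffer cell markers of its group, at 541 CPM against 178 and 241 in the others. The hepatocyte sums at day 10 were 85372 to 87074 CPM in WT, 31160 to 37295 in B, 38479 to 47309 in M and 32521 to 45354 in BM. Kupffer cell markers were then higher in BM than in WT, with medians of 364 against 300 CPM. Endothelial (348 against 517) and stellate cell markers (244 against 547) were lower. At day 10 the number of genes with a changed TE, at an adjusted p under 0.1, was highest without certain mice. It was 2283 in BM without mouse 1, 131 in M without mouse 3 and 20 in B without mouse 3. These mice are named by that outcome, and results that rest on them are given with and without them. Such fits have fewer mice in that group than in WT.

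Ribosomes start on an mRNA, read its coding sequence and leave protected fragments wherever they are caught, so RPFs follow both the amount of an mRNA and how densely it is read. TE divides the level of RPFs by the level of RNA. A lower TE can therefore go with fewer RPFs, with more RNA, or with both, and each quantity is shown here. TE was log2 of (RPF CPM + 0.5) over (RNA CPM + 0.5) in each mouse.

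The genes have separate roles. Serpinb8 encodes an intracellular serpin of clade B, a protease inhibitor known to inhibit furin-type proprotein convertases. Lrp1 encodes a very large endocytic receptor, which in hepatocytes clears lipoprotein remnants and protease-inhibitor complexes from blood. Scaf1 here is the SR-related factor that binds the C-terminal domain of RNA polymerase II. Rps23rg1 is a retroposed gene derived from the ribosomal protein gene Rps23 and transcribed in the opposite orientation, and its product is known for effects on cAMP signalling and GSK3.

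On GRCm39, Serpinb8 (ENSMUSG00000026315.14) lies on the plus strand at chr1:107517700-107539280, and Lrp1 (ENSMUSG00000040249.16) on the minus strand at chr10:127374012-127457017. Scaf1 (ENSMUSG00000038406.18) is on the minus strand at chr7:44652251-44665810, and Rps23rg1 (ENSMUSG00000065952.14) on the plus strand at chr8:3617947-3634939. RPFs were counted on 1 transcript a gene, whereas RNA was summed over 2 isoforms for Serpinb8, Scaf1 and Rps23rg1 and 3 for Lrp1. The RPF transcript held 44.9% of the RNA of Serpinb8, 84.4% for Lrp1, 50.1% for Scaf1 and 63.1% for Rps23rg1. The bases around the start codon of each RPF transcript, where a ribosome begins, are shown from GENCODE vM39 with the ATG in capitals, 15 bases before it and 12 after it.
Serpinb8: gagagaccctctcaaATGgatgacctcagt
Lrp1: gcatcggcccacaccATGctgaccccgccg
Scaf1: gggtgataggtgaccATGgaggaggaagat
Rps23rg1: gttgcatacacatacATGcagagccaacag

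The start contexts were not alike. Scaf1 had both a purine 3 bases before the ATG and a G right after it, as 43.4% of 16174 transcripts did. Lrp1 had only the purine (85.5% of transcripts have it), Serpinb8 only the G (51.3%), and Rps23rg1 neither. The transcripts also differed widely in length. The coding sequence measured 1125 bases for Serpinb8, 13638 for Lrp1, 3771 for Scaf1 and 426 for Rps23rg1, against a median of 1281 over 16201 genes. Before the coding sequence, Rps23rg1 had 724 bases with 11 ATG triplets, the 97.0th percentile for that number, Scaf1 had 206 bases with 4, Lrp1 461 with 2 and Serpinb8 328 with 1 (medians 221 bases and 1 triplet). These features were read from vM39, whose models are longer than the transcripts the authors counted on, at 1835 against 1621 bases for Rps23rg1, 4612 against 3001 for Serpinb8, 4330 against 4209 for Scaf1 and 14906 against 14888 for Lrp1, so the lengths outside the coding sequence may differ in the transcripts counted. No feature of the transcript placed all 4 at the same end of the range.

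TE in WT livers was above the median of all genes for each of the 4. The WT mice of day 4 had a part in the choice of the genes, which favours a high level in WT, so these ranks are a description. Per length, TE was RPF CPM per kilobase of coding sequence over RNA CPM of the gene per kilobase of the RPF transcript. Its log2 in WT was 6.35 for Rps23rg1, 3.73 for Serpinb8, 2.61 for Lrp1 and 1.44 for Scaf1, against a median of 0.76 over 10138 genes. Rps23rg1 ranked 1st, Serpinb8 56th, Lrp1 365th and Scaf1 2500th. The RNA levels in TPM, a length-scaled level, set them apart: Lrp1 had 91.1, the 90.3th percentile, whereas Serpinb8 had 0.982, Scaf1 1.80 and Rps23rg1 2.37. Only Lrp1 therefore had a TE measured with little counting error, 0.02 to 0.04 on the log2 scale in a single mouse, while that of Serpinb8 was 0.14 to 0.74, that of Scaf1 0.22 to 0.35 and that of Rps23rg1 0.23 to 1.02. These errors cover counting only.

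**Figure D1:**
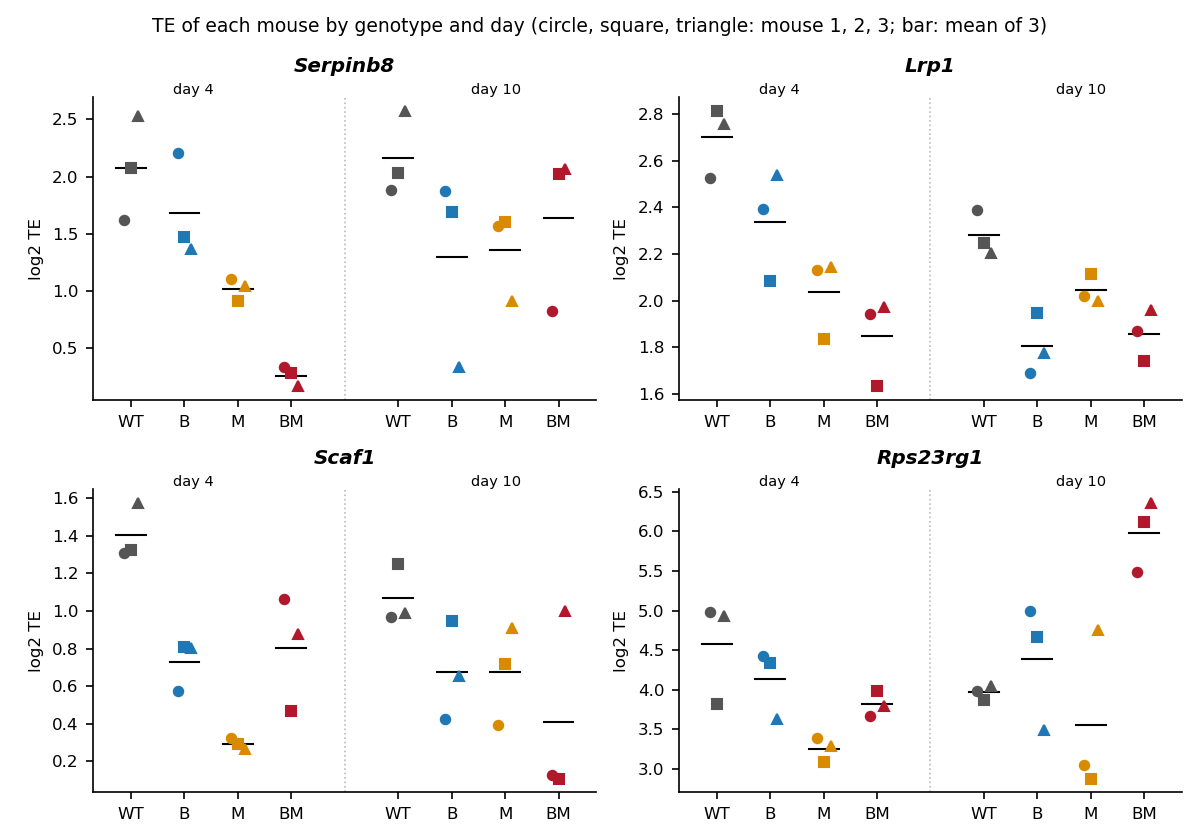
TE of each mouse (y axis, log2) for each gene, by genotype and day (x axis); circles, squares and triangles are mice 1, 2 and 3, and bars are means of 3. At day 4 Serpinb8, Lrp1 and Scaf1 were lower in every M and BM mouse than in every WT mouse, and at day 10 Rps23rg1 was higher in every BM mouse than in every mouse of the other groups.

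At day 4 the log2 TE of Serpinb8 was 1.62, 2.07 and 2.52 in the WT mice, 2.20, 1.47 and 1.37 in B, 1.10, 0.91 and 1.05 in M, and 0.34, 0.28 and 0.17 in BM. Every M mouse lay below every WT mouse, as in 9.06% of all genes. Every BM mouse also lay below every WT mouse, as in 9.12% of genes. The RPFs were not lower, at 9.97, 10.9 and 12.0 CPM in WT, 10.0, 11.9 and 12.9 in M, and 29.1, 23.1 and 25.3 in BM. The RNA was higher by more than the RPFs, going from 2.91, 2.21 and 1.66 CPM in WT to 4.39, 6.12 and 5.98 in M and 22.9, 18.9 and 22.5 in BM. The ratio of group means to WT was thus 2.43 for RNA and 1.06 for RPFs in M, and 9.49 for RNA and 2.36 for RPFs in BM. In WT the RNA rested on 13, 10 and 7 counts.

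Lrp1 had the most precise values at day 4. Its log2 TE was 2.53, 2.81 and 2.76 in WT, 2.39, 2.08 and 2.54 in B, 2.13, 1.84 and 2.14 in M, and 1.94, 1.63 and 1.97 in BM. The M and BM mice did not overlap WT, and 1 B mouse did. Lrp1 RNA was 579, 451 and 500 CPM in WT against 631, 745 and 696 in M and 669, 1058 and 808 in BM, so it was higher in every mouse with the MYC allele, as for 18.9% of genes in M and 24.1% in BM. RPFs were 3334, 3172 and 3385 CPM in WT, 2767, 2663 and 3080 in M and 2574, 3284 and 3170 in BM. They were lower than WT in every M mouse, as for 21.1% of genes, and overlapped WT in BM.

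The lowest Scaf1 values at day 4 were those of the M mice. Its log2 TE at day 4 was 1.31, 1.32 and 1.57 in WT, 0.57, 0.81 and 0.81 in B, 0.32, 0.29 and 0.27 in M, and 1.06, 0.47 and 0.88 in BM. None of the B, M or BM mice reached the lowest WT mouse. In M the RPFs were 11.6, 10.3 and 8.90 CPM against 16.3, 12.4 and 14.4 in WT, so both parts moved: the mean ratio to WT was 0.715 for RPFs and 1.61 for RNA. In BM the RPFs had a ratio of 0.974 and the RNA of 1.53.

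Rps23rg1 had the fewest RNA counts at day 4. WT mice had 3, 9 and 4, B mice 6, 6 and 11, M mice 29, 40 and 25, and BM mice 34, 25 and 25. Its log2 TE was 4.98, 3.82 and 4.94 in WT, 4.43, 4.34 and 3.63 in B, 3.38, 3.08 and 3.28 in M, and 3.66, 3.99 and 3.80 in BM. Every M mouse was below every WT mouse, while the BM mice overlapped WT mouse 2. RPFs were higher in M and BM, with mean ratios to WT of 1.52 and 1.90, and RNA was higher still, with ratios of 4.72 and 3.93.

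The fitted differences at day 4, which chose the genes, are given without a test. In M they were -1.15 (SE 0.30) for Serpinb8, -0.62 (SE 0.14) for Lrp1, -1.15 (SE 0.25) for Scaf1 and -1.58 (SE 0.34) for Rps23rg1 on the log2 scale. In BM they were -1.99 (SE 0.26), -0.85 (SE 0.21), -0.64 (SE 0.26) and -1.02 (SE 0.35) in the same order. Across all genes, 9 of 10405 (0.0865%) had a lower TE in M at an adjusted p under 0.1 by edgeR's quasi-likelihood test, and 55 of 10528 (0.522%) in BM. These counts moved with the fit. In M the count was 94 with both libraries of a mouse joined as a replicate block, 18 by DESeq2 and 1 with all 24 mice in 1 fit, and without 1 mouse it was 0 (without WT mouse 3 or M mouse 1), 2 (without M mouse 2) or up to 18 (without WT mouse 2). In BM it was 253 with the block and 19 with all 24 mice, and without 1 mouse it was 17 (without WT mouse 3), 23 (without BM mouse 2), 28 (without WT mouse 1), 29 (without BM mouse 3) or up to 43. The RNA differences were above 0 in all 8 cases, at 0.44 to 2.21 in M and 0.60 to 3.22 in BM, and the RPF differences ran from -0.46 to 0.64 in M and from -0.12 to 1.25 in BM.

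**Figure D2:**
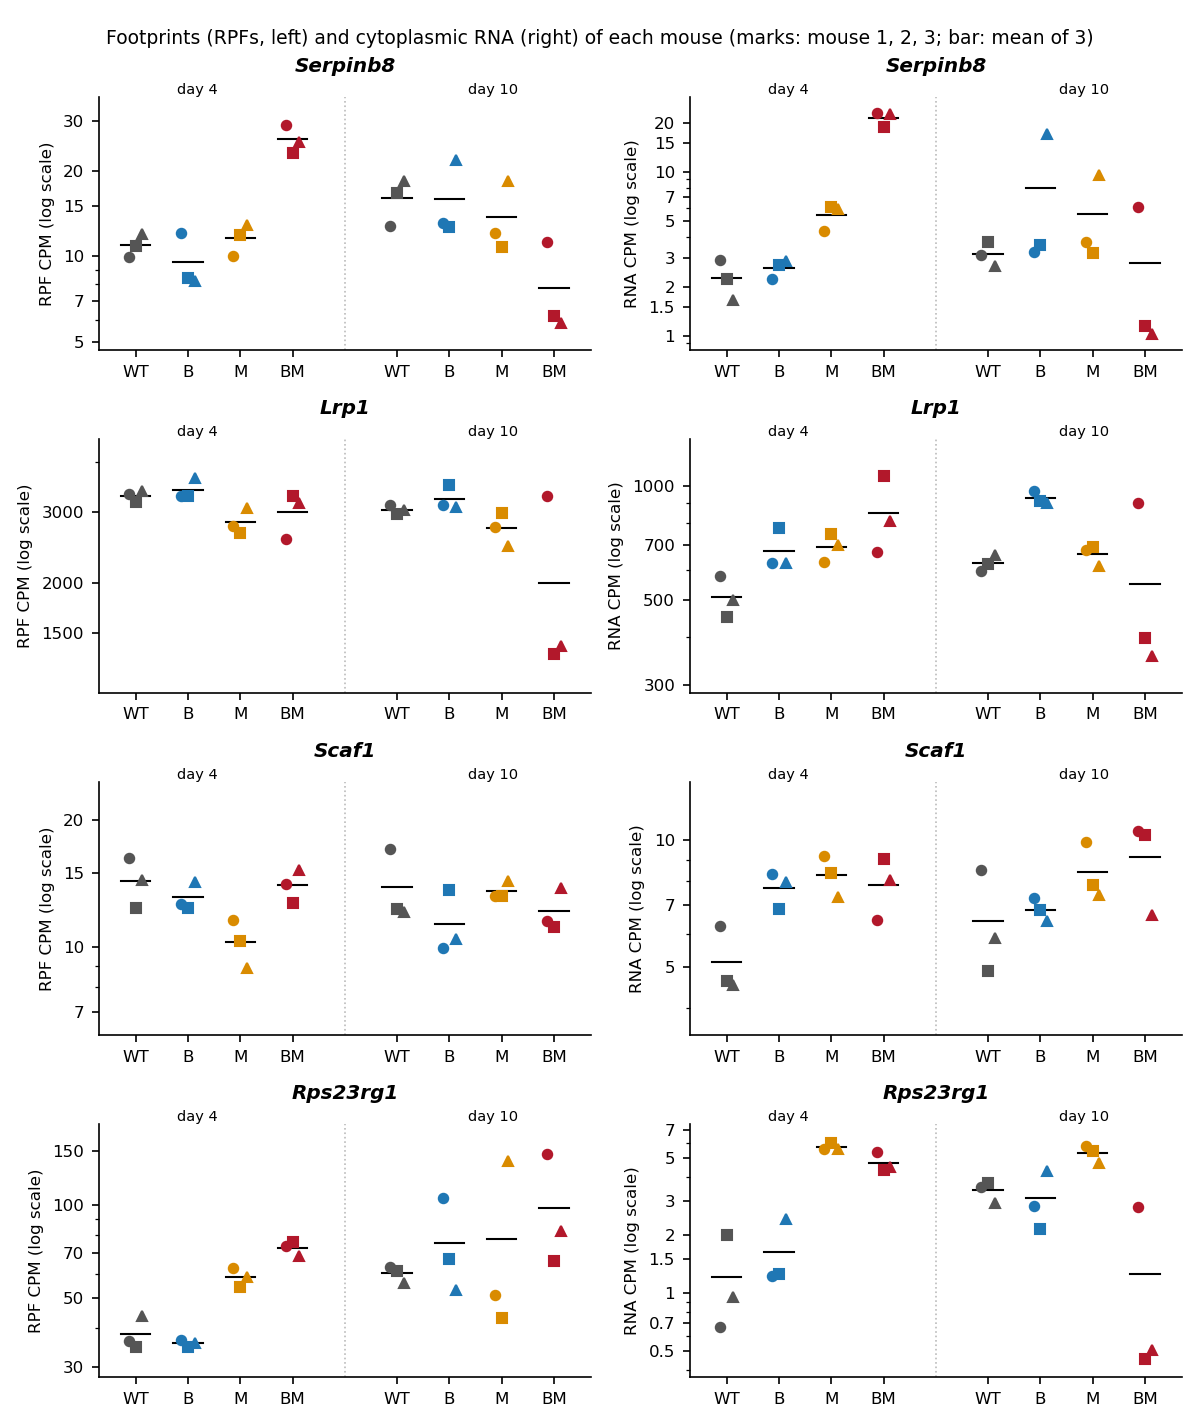
RPF CPM (left) and RNA CPM (right) of each mouse on log y axes, by genotype and day (x axis); circles, squares and triangles are mice 1, 2 and 3, and bars are means of 3. RNA at day 4 was higher in every M and BM mouse than in every WT mouse for each of the 4 genes, and Lrp1 RPFs at day 10 were 3287 CPM in BM mouse 1 but 1335 and 1392 in mice 2 and 3.

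B mice at day 4 were compared with the same WT mice, so these values are also a description. The fitted TE difference was -0.39 (SE 0.38) for Serpinb8, -0.37 (SE 0.16) for Lrp1 and -0.73 (SE 0.25) for Scaf1, and Rps23rg1 did not pass the filter on low RNA counts. RNA in B was 1.15 times WT for Serpinb8, 1.32 times for Lrp1 and 1.50 times for Scaf1. Every B mouse lay below every WT mouse in TE for Scaf1, and for none of the other 3 genes, against 4.89% of all genes.

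Day 10 asks whether the lower TE was still there in other mice. It did not pass the test for any of the 4 genes in M, BM or B in the fit reported. With the replicate block that joins both libraries of a mouse, a lower TE passed in B for Lrp1 (adjusted p = 0.0365) and Serpinb8 (adjusted p = 0.0831). The differences of the comparisons at a day share the same 3 WT mice. In M, the fitted log2 TE difference was -1.03 (SE 0.51) for Serpinb8, -0.24 (SE 0.17) for Lrp1, -0.42 (SE 0.29) for Scaf1 and -0.26 (SE 0.68) for Rps23rg1, each with an adjusted p of 1.00 by edgeR's quasi-likelihood test. No gene of 10453 was called in M (0.0%), with 334 at an unadjusted p under 0.05 and 3 called by DESeq2. Every M mouse was nevertheless below every WT mouse for 3 of the 4 genes, Serpinb8, Lrp1 and Scaf1, whereas 6.23% of all genes had that pattern.

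Serpinb8 at day 10 varied within the B and BM groups, with SDs of its log2 TE of 0.84 and 0.70 (n = 3) against 0.36 in WT and 0.39 in M. Its log2 TE was 1.88, 2.03 and 2.57 in WT, 1.87, 1.69 and 0.34 in B, 1.57, 1.60 and 0.91 in M, and 0.83, 2.02 and 2.06 in BM. The lowest mouse of each mutant group was mouse 3 of B, mouse 3 of M and mouse 1 of BM. Those mice also had the most Serpinb8 RNA, at 17.2, 9.57 and 6.14 CPM, against 3.23 and 3.59 in the other B mice, 3.75 and 3.22 in M and 1.15 and 1.02 in BM. RNA of Mki67, a proliferation marker chosen after its values were seen, was highest in the same mice, at 107, 76.2 and 49.5 CPM, against 34.8 and 56.8 in the other B mice, 22.9 and 24.5 in M and 28.2 and 23.2 in BM. At day 4 it was 4.20 to 4.92 CPM in WT and 197 to 316 in BM, where Serpinb8 RNA was also highest. The 2 did not go together in every group: mice 2 and 3 of BM at day 10 had more Mki67 RNA than every WT mouse (4.63 to 16.4 CPM) but less Serpinb8 RNA than every WT mouse (2.68 to 3.72 CPM). The part of proliferation in the Serpinb8 values was not tested.

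In BM at day 10 the Serpinb8 TE difference was -0.94 (SE 0.70, adjusted p = 0.695), and without mouse 1 it was 0.12 (adjusted p = 0.895). Its RPFs fell: they were 12.8, 16.8 and 18.4 CPM in WT and 11.3, 6.19 and 5.85 in BM, a difference of -1.05 (SE 0.29, adjusted p = 0.0251 by edgeR's quasi-likelihood test). All 3 BM mice were below the WT mice, as in 25.0% of all genes, and RPFs changed in 46.8% of all genes in this comparison. Serpinb8 RNA in BM did not pass the test (-0.13, SE 0.61), but without mouse 1 it was -1.53 (adjusted p = 0.0125), when 57.4% of all genes were called for RNA. In B the TE difference was -1.36 (SE 0.71, adjusted p = 1.00), with the replicate block it was -1.26 with an adjusted p of 0.0831, and without B mouse 3 it was -0.42 (adjusted p = 0.912). In M the TE difference without mouse 3 was -0.60. The difference in Serpinb8 RNA in M was 0.81 (SE 0.42), and 0.12 without mouse 3, when its RPFs were lower than WT by a difference of -0.48 (adjusted p = 0.0929), when 24.5% of all genes were called for RPFs. In B its RNA differed by 1.34 (SE 0.59, adjusted p = 0.188), with an adjusted p of 0.0853 by DESeq2 and of 0.0890 without B mouse 1, where 13.2% and 14.2% of all genes were called. Without B mouse 3 the RNA difference was 0.09 (adjusted p = 0.902).

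Lrp1 at day 10 had log2 TE values of 2.39, 2.25 and 2.20 in WT, 1.69, 1.95 and 1.78 in B, 2.02, 2.11 and 2.00 in M, and 1.87, 1.74 and 1.96 in BM. It was the only gene of the 4 whose TE was lower in every B, M and BM mouse than in every WT mouse. Taken 1 genotype at a time, all genes with that order made up 6.23% in M, 9.73% in BM and 7.39% in B. The share of genes with that order in all of them at once was not computed. The fitted difference in B was -0.49 (SE 0.16), with an adjusted p of 0.851 by edgeR's quasi-likelihood test, of 0.0365 with the replicate block and of 0.0584 by DESeq2. In BM it was -0.46 (SE 0.52, adjusted p = 0.800), and without mouse 1 the same difference had an adjusted p of 0.0883. Of all genes, 0.0564% were called for TE in B and 0.259% in BM in the fit reported, against 2.6% in B with the block, 0.245% in B by DESeq2 and 21.5% in BM without mouse 1.

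The RNA of Lrp1 rose in B at day 10. It was 598, 624 and 658 CPM in WT and 971, 909 and 900 in B, with a difference of 0.56 (SE 0.14, adjusted p = 0.0237 by edgeR's quasi-likelihood test) where 15.7% of all genes changed. The call was lost without WT mouse 1 (adjusted p = 0.112) or WT mouse 3 (adjusted p = 0.104). Its RPFs did not pass the test in B, at 0.07 (SE 0.12), with 3135, 3506 and 3085 CPM against 3135, 2968 and 3032 in WT. In BM the groups overlapped: RPFs were 3287, 1335 and 1392 CPM and RNA was 899, 399 and 357 CPM. Without mouse 1 both fell, with differences of -1.17 in RPFs (adjusted p = 4.86e-05) and -0.73 in RNA (adjusted p = 0.00049), in a fit that called 66.3% of all genes for RPFs and 57.4% for RNA.

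Scaf1 was below WT in TE at day 10 in every B and M mouse, and in 2 of 3 BM mice. Its log2 TE was 0.97, 1.25 and 0.99 in WT, 0.43, 0.94 and 0.65 in B, 0.39, 0.72 and 0.91 in M, and 0.13, 0.11 and 1.00 in BM. The differences were -0.41 (SE 0.31) in B and -0.75 (SE 0.34, adjusted p = 0.494) in BM. Neither RPFs nor RNA of Scaf1 passed the test in any of the 3 comparisons. At day 10 RPFs changed in 19.4% of all genes in M, 46.8% in BM and 25.2% in B, and RNA in 15.8% in M, 46.0% in BM and 15.7% in B. Scaf1 RPFs were 9.95 to 17.1 CPM and RNA 4.89 to 10.5 CPM over the 12 mice.

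For Rps23rg1 the TE differences from WT at day 10 had different signs, and none passed the test. Its log2 TE was 3.98, 3.87 and 4.04 in WT, 5.00, 4.67 and 3.49 in B, 3.05, 2.87 and 4.75 in M, and 5.49, 6.11 and 6.36 in BM. Every BM mouse was above every WT mouse, as were 15.6% of all genes. The difference in BM was 2.01 (SE 0.65, adjusted p = 0.355 by edgeR's quasi-likelihood test), 2.07 with the replicate block (adjusted p = 0.0219), and 2.05 by DESeq2 (adjusted p = 0.0932). Without mouse 1 it was 3.05 (adjusted p = 0.00095). Of all genes, 5.21% were called for TE in BM with the block, 0.892% by DESeq2 and 21.5% without mouse 1. In B it was 0.43 (SE 0.44, adjusted p = 1.00), and 0.96 without mouse 3 (adjusted p = 0.640). In M it was -0.26 (SE 0.68, adjusted p = 1.00), and -1.06 without mouse 3 (adjusted p = 0.0782), when 1.24% of all genes were called.

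The RNA counts behind those Rps23rg1 values were small. BM mice had 14, 2 and 2 RNA counts and 2516, 851 and 1001 RPF counts, against 17, 19 and 12 and 720, 604 and 467 in WT. The ratio of RPF to RNA CPM in BM mice 2 and 3 was 144 and 162, with exact 95% intervals of 39.7 to 1190 and 44.6 to 1336. The RPFs rose by 0.69 (SE 0.28, adjusted p = 0.0853 by edgeR's quasi-likelihood test), and the RNA difference was -1.34 (SE 0.56, adjusted p = 0.0918), where 46.0% of all genes changed in RNA. Both calls were lost when any 1 of the WT mice was left out, and the RNA call also without BM mouse 2 or 3. Without BM mouse 1 the difference was 0.29 in RPFs and -2.75 in RNA. In M, RPFs differed by 0.36 (SE 0.39), and by -0.36 without mouse 3 (adjusted p = 0.0657), when 24.5% of all genes were called. In B they differed by 0.30 (SE 0.21), and by 0.49 without mouse 3 (adjusted p = 0.0750), when 28.7% were called.

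**Figure D3:**
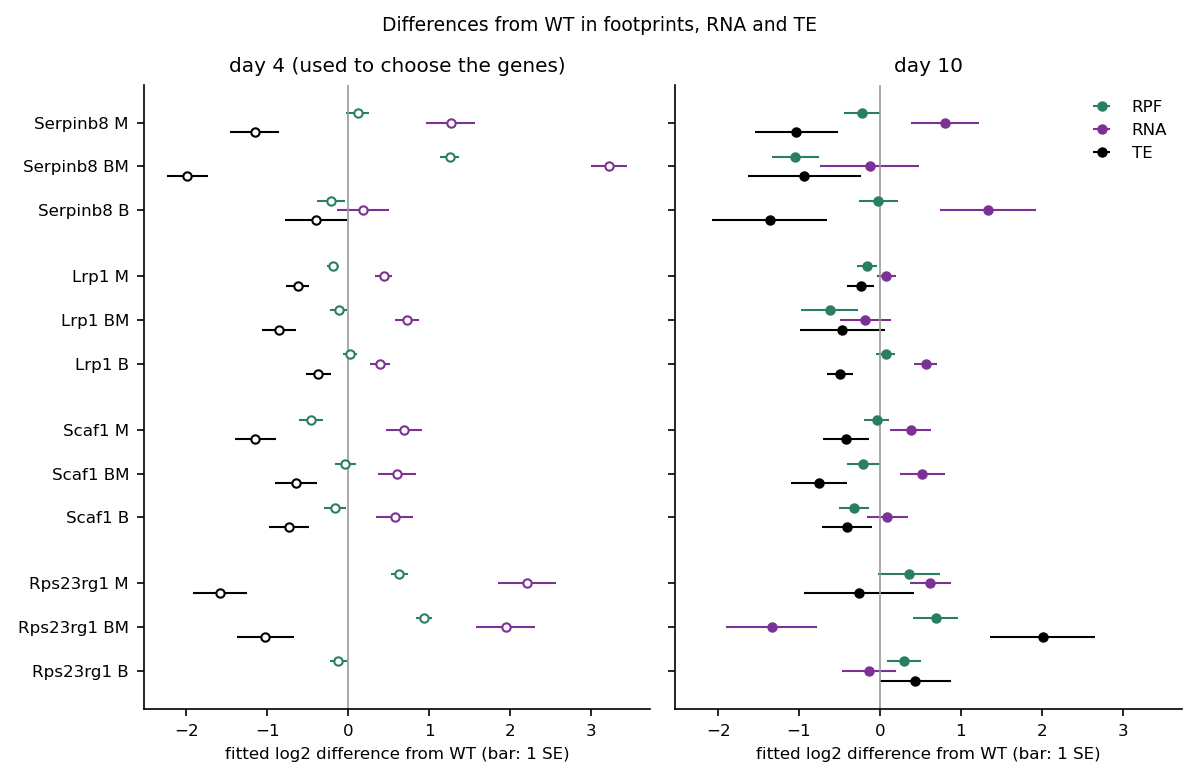
Fitted log2 differences from WT (x axis, bars 1 SE) in RPFs, RNA and TE for each gene and genotype (y axis), at day 4 (open, used to choose the genes) and day 10 (filled). At day 4 the RNA differences of M and BM lie at 0.44 to 3.22 while all TE differences are below 0, and at day 10 the TE difference of Rps23rg1 in BM is 2.01.

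Most of the Rps23rg1 coding sequence also occurs in related genes. Of 403 windows of 30 bases in the coding sequence of Rps23, 309 (76.7%) occur in that of Rps23rg1 on the opposite strand and 0 on the same strand, with a longest shared run of 258 bases. Of the 397 windows of Rps23rg1, 328 (82.6%) occur on the same strand in Gm5148, a predicted gene on chromosome 3. Of the windows of Serpinb8 and Lrp1, none occur in another transcript of the set searched, and of the 3742 of Scaf1, 16 occur on the same strand. One window shows the relation, bases 172 to 201 of the Rps23 coding sequence and bases 202 to 231 of the Rps23rg1 coding sequence, each the reverse complement of the other.
Rps23: gaggccaaacagccaaattctgccatcagg
Rps23rg1: cctgatggcagaatttggctgtttggcctc

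Rps23, a protein of the small ribosomal subunit, was in WT at the 93.6th percentile of genes in RNA per length and at the 51.4th in RPFs per length, and Rps23rg1 at the 12.3th and the 87.6th. Over the 24 mice Rps23rg1 had 5.64 to 12.5 times as many RPFs as Rps23, but only 0.227% to 4.57% as much RNA. In WT, the TE per length of Rps23 ranked 10058th of 10138 genes at -2.82 and that of Rps23rg1 ranked 1st. Gm5148 ranked 2nd. RPFs of the 2 genes were high in the same mice: at day 10 mouse 3 of M had 139 CPM for Rps23rg1 and 14.6 for Rps23, against 51.1 and 43.0, and 6.96 and 6.38, in the other M mice. Mouse 1 of BM had 146 and 16.7 CPM. The strand setting of the RPF alignment is not given in the sources used here, and how many RPFs were placed on the other gene was not tested.

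When the counts of Rps23 and Rps23rg1 were summed, an alternative added after seeing the data, the TE difference at day 4 was -0.13 in M and 0.10 in BM, in place of -1.58 and -1.02. At day 10 it was -0.58 in M, -0.41 in BM and 0.09 in B. With Gm5148 added to the sum, the day 4 values were -0.11 and 0.11, and the day 10 values -0.60, -0.40 and 0.08. None of the summed differences passed the test at day 10. The sums consist mainly of Rps23rg1 RPFs and of Rps23 RNA, and the direction in BM was the opposite of that for Rps23rg1 alone at each day.

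**Figure D4:**
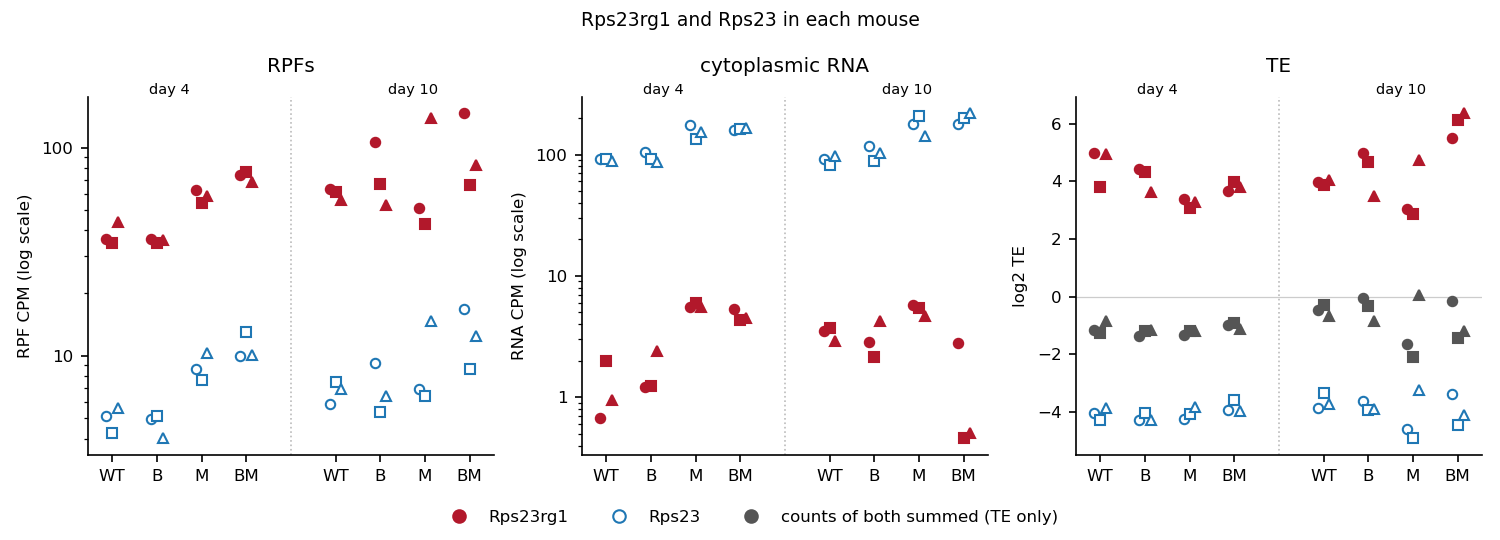
RPF CPM and RNA CPM (log y axes) and log2 TE of each mouse for Rps23rg1 (filled red), Rps23 (open blue) and, for TE, the sum of their counts (grey), by genotype and day (x axes); circles, squares and triangles are mice 1, 2 and 3. Rps23rg1 had 5.64 to 12.5 times the RPFs of Rps23 and 0.227% to 4.57% of its RNA.

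The MYC allele at day 10, tested over M and BM together against WT and B, gave no call for the 4 genes. The log2 TE difference was -0.29 (SE 0.58) for Serpinb8, -0.09 (SE 0.29) for Lrp1, -0.38 (SE 0.21) for Scaf1 and 0.67 (SE 0.54) for Rps23rg1, with adjusted p of 0.935, 0.964, 0.667 and 0.775 by edgeR's quasi-likelihood test. The share of all genes called was 0.136%.

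Ordered by mean log2 TE, Serpinb8 was highest in WT at day 10 (2.16 ± 0.36, SD, n = 3) and at day 4 (2.07 ± 0.45) and lowest in M (1.02 ± 0.10) and BM (0.26 ± 0.09) at day 4. The last pair were the only neighbours in its order whose mice did not overlap. Lrp1 ran from WT at day 4 (2.70 ± 0.15) to B at day 10 (1.80 ± 0.13), with a gap only between WT and M at day 10. Scaf1 ran from WT at day 4 (1.40 ± 0.15) to M at day 4 (0.29 ± 0.03), with a gap only between WT at day 4 and WT at day 10. Rps23rg1 ran from BM at day 10 (5.99 ± 0.45) to M at day 4 (3.25 ± 0.15), with a gap only below BM at day 10.

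The 4 genes did not move as a unit over the 24 mice. Pearson's r of log2 TE was 0.66 for Lrp1 and Scaf1, 0.53 for Serpinb8 and Lrp1, and 0.35 for Serpinb8 with Scaf1 and with Rps23rg1. It was -0.11 for Lrp1 and Rps23rg1 and 0.07 for Scaf1 and Rps23rg1. The mice share genotypes and scaling, so these are descriptions over mice that are not independent of the groups. Among about 8731 genes with enough counts, the TE most like that of Serpinb8 was of Slc4a4 (r = 0.783), a bicarbonate transporter, and that most like Lrp1 was of Atg2a (0.850), Acacb (0.849) and Acsf2 (0.848). For Scaf1 they were Tuba4a (0.791), Bin3 (0.781) and Ndufa10 (0.752), and for Rps23rg1 Vps18 (0.825), Paics (0.817) and Hsd17b6 (0.811). For Serpinb8, Hsd17b4 (0.738) and Paqr9 (0.734) followed.

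Related genes were described with 9 lists. Of all genes tested, 0.971% were called for TE in M, 2.23% in BM and 0.0488% in B at day 4, and 0.0%, 0.259% and 0.0564% in the same order at day 10, so few or no calls in lists of this size is near the share of all genes. Over the 6 comparisons with WT, the only gene called for TE in the fit reported was Serpina3m, a secreted serpin. Its TE rose in BM at day 4 by 1.36 (SE 0.17, adjusted p = 0.000437) and at day 10 by 1.68 (SE 0.21, adjusted p = 0.00467 by edgeR's quasi-likelihood test). At day 4 both its RPFs (-0.34, adjusted p = 0.0452) and its RNA (-1.70, adjusted p = 8.32e-08) fell, and at day 10 its RPFs rose (0.66, adjusted p = 0.0122) while its RNA fell (-1.05, adjusted p = 0.00144). With the replicate block there were more calls, 4 in M, 9 in BM and 1 in B at day 4 and 1, 10 and 3 in the same order at day 10, where 2.65%, 6.17% and 0.274%, and 0.325%, 5.21% and 2.6%, of all genes were called. Serpina3m was among them in each comparison, and in B at day 10 the others were Furin and Thbs1, a ligand of Lrp1. The counts of calls that follow are of the fit without the block. Of the 27 clade B serpins listed 3 or 4 had enough counts, among them Serpinb6a, with 0.50 (SE 0.25) in BM at day 4, and Serpinb9, with -0.16 (SE 0.23). None of 6 proprotein convertases was called. Their median TE difference ran from -0.48 in BM at day 10 to 0.07 in B at day 10. Furin, a convertase that serpins of clade B can block, had -0.59 (SE 0.34, adjusted p = 0.597) in BM at day 10 and 0.54 (SE 0.18, adjusted p = 0.857) in B at day 10. It was called in B with the replicate block and in BM without BM mouse 1.

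Of the receptors of the same family as Lrp1, 11 to 13 of 15 were tested and none was called, with medians from -0.21 in BM at day 4 and day 10 to 0.18 in B at day 10. Lrpap1, the chaperone that escorts Lrp1, stayed between -0.05 and 0.04 in TE over the 6 comparisons. None of the 14 or 15 genes for Lrp1 ligands tested was called, nor any of the 7 or 8 for its folding and adaptors. For Scaf1, 17 of 17 related factors and 26 of 27 SR proteins were tested with no call, and Scaf4 had -0.41 (SE 0.19, adjusted p = 0.672) in M at day 4 while Scaf8 had -0.03 (SE 0.18). Of 19 genes around Rps23, cAMP and GSK3, 12 or 13 were tested and none was called. Rps23 itself had 0.09 (SE 0.19) in M and 0.29 (SE 0.17) in BM at day 4.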

How the data were processed

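RPFs and cytoplasmic RNA of 24 mouse livers were analysed, with groups taken from the sample labels. The authors trimmed reads with Cutadapt 1.18, removed duplicates by molecular identifier, aligned RPFs to the most abundant transcript of each gene (GENCODE, GRCm39) and deposited RPF counts over coding sequences without the codons nearest the start and the stop. For RNA the authors aligned reads with Bowtie2 2.3.5.1 and deposited RSEM 1.3.3 expected counts and TPM per isoform. Expected counts were summed per gene and rounded here, and at least 99.92% were whole in every library. TMM factors were computed within library type over 24 libraries. TE was tested in edgeR 4.0.16 (R 4.3.3) by the quasi-likelihood test of the interaction of group and library type. The same test was run on RPFs and RNA, with edgeR's expression filter and Benjamini-Hochberg adjustment over all genes tested, calling genes at an adjusted p under 0.1. The fits were also run on simulated counts with set TE changes, and that outcome is not given here. The study's own method used DESeq2, which was run here as version 1.42.0 as an alternative. Others were size factors, filters, pseudocounts, RNA of the RPF transcript only, all 24 mice in 1 fit, and leaving out each mouse. Over the alternative fits of all mice compared, the Scaf1 TE difference at day 4 ran from -1.56 to -1.13 in M and from -1.06 to -0.63 in BM. The numbers pair the 2 libraries of a mouse, which share a lysate. Their deviations correlated at r = 0.20 to 0.61 in all 24 mice, so a fit with that block was added. Same-numbered mice of different genotypes (-0.24 to 0.26) were not paired. The members and gene lists were chosen with earlier results of these data known. Named genes were the 4 members, list genes called or most closely tied to a member, the 3 genes most like each member in TE, Glul and Myc, and 1 list gene of that rule is not reported here.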

Additional observations from a re-analysis of the deposited data

Results flagged for a closer look

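The differences of M, BM and B from WT were compared between day 4 and day 10, 36 effects over the 4 genes (RPFs, RNA and TE in each genotype), and in 3 of them every mouse moved one way at day 4 and the opposite way at day 10, relative to the mean of the WT mice. The difference between days was not tested in any of them, and the day 4 values were used to choose the genes. Serpinb8 RPFs in BM lay 1.20 above WT at day 4 on the log2 scale and -1.04 from WT at day 10. Rps23rg1 TE in BM was -0.76 from WT at day 4 and 2.02 above WT at day 10. Rps23rg1 RNA in BM was 1.69 above WT at day 4 and -1.40 from WT at day 10. Mice of day 4 and of day 10 were separate animals.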

How the results depend on the processing

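The number of genes called for TE at day 10 depended on the fit. In M the count of all genes called was 0 in the fit reported, 3 with DESeq2 and 34 with the replicate block that joins both libraries of a mouse, and 0 to 131 when 1 mouse was left out (131 without M mouse 3). In BM it was 27, against 93 with DESeq2, 14 with at least 10 counts in every library, 543 with the block, 786 with all 24 mice in 1 fit, and 6 to 2283 without 1 mouse (2283 without BM mouse 1). In B it was 6, against 26, 3, 276 and 30 in the same order, and 0 to 20 without 1 mouse (0 without WT mouse 3, 20 without B mouse 3). For the MYC allele it was 15, against 44, 9, 365 and 197, and 10 to 1291 without 1 mouse (1291 without BM mouse 1, 60 without M mouse 3). The cause was not tested.

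Of the members, 0 were called for TE in each comparison of the fit reported. In BM 1 was called with DESeq2, with the block and with all 24 mice (Rps23rg1 each time), and 0 to 2 without 1 mouse. In B 1 was called with DESeq2 and 2 with the block, and 0 without any 1 mouse. In M 0 to 1 were called without 1 mouse, and for the MYC allele 0. Members called for RPFs numbered 2, and 1 to 4 without 1 mouse. For RNA they numbered 2, and 0 to 4 without 1 mouse. The block changed no other member's call. Calls for TE among list genes numbered 2 over all comparisons with WT (Serpina3m in BM at each day), 4 with DESeq2, 28 with the block, 13 with all 24 mice, and 1 to 35 without 1 mouse (35 without BM mouse 1 at day 10).

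Some differences changed sign. With Rps23 and Rps23rg1 counts summed, Rps23rg1's TE was -0.41 in BM at day 10, -0.54 for the MYC allele and 0.10 in BM at day 4, and with Gm5148 summed too it was -0.40, -0.54 and 0.11. In each sum 1 of the 8 differences of the members at day 4 lay above 0. Without 1 mouse at day 10, the TE of Rps23rg1 in M ran from -1.06 to 0.050, that of Serpinb8 from -1.16 to 0.12 in BM and from -0.77 to 0.22 for the MYC allele. RPFs of Scaf1 in M ran from -0.12 to 0.15, those of Rps23rg1 from -0.36 to 0.65 in M and from -0.012 to 0.49 in B, and those of Serpinb8 in B from -0.33 to 0.12. RNA ran from -1.53 to 0.25 for Serpinb8 and from -0.73 to 0.050 for Lrp1 in BM, from -0.10 to 0.34 for Scaf1 and from -0.46 to 0.075 for Rps23rg1 in B.

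In all, 356 values of single members under the other settings and 293 without 1 mouse kept their direction and their side of the threshold. Under the other settings 6 changed sign, 7 came to pass the threshold and 4 day 4 values moved by more than the SD of the WT mice. Without 1 mouse 17 changed sign, 10 lost and 9 gained a call, and 1 day 4 value moved. RNA counts in a library were low for 3 of the 4 genes, with as few as 4 for Serpinb8, 19 for Scaf1 and 2 for Rps23rg1. No label named a batch. Each group had 3 mice.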
